A study of Mus musculus with 8 samples.

Results

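The genes of the IL-7 receptor, its JAK-STAT5 relay and the inhibitors that feed back on it were followed by chromatin accessibility during the first 2 h of Ikaros induction. Peaks whose summit lay in the body of Il7r, Il2rg, Jak1, Jak3, Stat5a, Stat5b, Cish, Socs2 or Socs3, or within 20 kb of it, formed 174 member regions of the 174718 regions found in the series. A region is a stretch in which peaks of the 8 deposited lists overlap, and 14 regions lay within reach of both Stat5a and Stat5b and were counted once. Of the members, 56 (32.2%) had a peak in all 8 lists and could be tested for a change in rank, against 47875 (27.4%) of all regions.

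ATAC-seq, in which the Tn5 transposase cuts and tags open DNA, had been performed on B3 cells, a single mouse pre-B line that the study describes as lymphoma-derived. All groups carried Ikaros-ERt2, delivered by transduction, a fusion of the transcription factor Ikaros with a receptor domain that stays out of the nucleus until 4-hydroxytamoxifen (4-OHT) binds it. Each time point, namely untreated cells (0 h) and cells after 30 min, 1 h and 2 h of 500 nM 4-OHT, had 2 libraries. The 0 h cells had no vehicle, so effects of 4-OHT or its solvent and of Ikaros cannot be told apart, and the labels do not say that the replicates were separate cultures, so that p-values measure the spread between libraries only.

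IL-7 is the cytokine that keeps pro-B and pre-B cells alive and dividing. It joins the IL-7 receptor alpha chain (Il7r) to the common gamma chain (Il2rg), which brings JAK1 and JAK3 together, and these kinases phosphorylate STAT5A and STAT5B, which enter the nucleus. Among the genes that STAT5 switches on are Cish, Socs2 and Socs3, whose products act back on the receptors and kinases, while Ikaros is known to oppose IL-7 signalling as pre-B cells stop dividing and differentiate.

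Regions are named by gene and by the distance of the summit from the gene's start, with plus in the direction of transcription, and all positions are GRCm38 with GENCODE M21 gene models. The sequences of the 3 regions past the test threshold, of the promoters of 3 genes on which the results turn and of 1 region next to the Il2rg promoter, the latter chosen after its values were seen, are 150 bases of the plus strand around the summit. Capitals mark the core words bound by Ikaros, GGAA and GGGA, on either strand, so that a word of the minus strand appears as its reverse complement. Words may overlap.
Jak1 -15.0 kb, lower at 2 h, chr4:101280251-101280400: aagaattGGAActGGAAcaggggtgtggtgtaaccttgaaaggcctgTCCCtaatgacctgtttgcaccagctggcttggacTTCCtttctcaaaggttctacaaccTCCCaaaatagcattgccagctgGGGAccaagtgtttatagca
Jak1 +11.1 kb, lower at 1 h and 2 h, chr4:101254148-101254297: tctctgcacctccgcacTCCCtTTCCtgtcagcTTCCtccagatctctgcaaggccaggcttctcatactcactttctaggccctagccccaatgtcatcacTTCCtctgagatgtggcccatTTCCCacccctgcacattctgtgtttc
Jak1 +9.6 kb, higher at 1 h and 2 h, chr4:101255637-101255786: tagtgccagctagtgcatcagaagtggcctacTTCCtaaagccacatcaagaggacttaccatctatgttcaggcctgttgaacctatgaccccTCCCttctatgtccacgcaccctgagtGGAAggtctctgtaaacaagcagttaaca
Jak1 promoter, chr4:101265245-101265394: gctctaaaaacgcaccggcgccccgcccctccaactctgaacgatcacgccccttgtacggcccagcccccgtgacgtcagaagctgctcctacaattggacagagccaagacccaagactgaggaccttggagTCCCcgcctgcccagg
Il2rg promoter, chrX:101268189-101268338: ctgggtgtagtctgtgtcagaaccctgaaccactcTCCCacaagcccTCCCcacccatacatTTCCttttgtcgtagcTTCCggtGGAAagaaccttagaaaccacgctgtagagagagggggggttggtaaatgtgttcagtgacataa
Il2rg -0.7 kb, no peak from 30 min on, chrX:101268866-101269015: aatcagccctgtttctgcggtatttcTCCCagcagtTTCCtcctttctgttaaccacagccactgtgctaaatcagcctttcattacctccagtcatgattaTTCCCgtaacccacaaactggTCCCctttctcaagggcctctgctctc
Socs2 +0.4 kb at the promoter, no peak at 1 h and 2 h, chr10:95416695-95416844: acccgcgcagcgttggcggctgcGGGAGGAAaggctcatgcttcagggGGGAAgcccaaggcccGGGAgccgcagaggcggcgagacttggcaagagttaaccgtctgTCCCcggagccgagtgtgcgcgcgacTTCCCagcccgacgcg
The Jak1 promoter sequence held 1 core word, the Jak1 region that rose held 3, and the Jak1 regions that fell held 6 each. The Socs2 promoter sequence held 8. The Il2rg promoter, which stood higher at 2 h, and Il2rg -0.7 kb, which had no later peak, held 5 each. No relation between words and direction was tested on these sequences.

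The lists held 85903 (0 h replicate 2) to 103897 (2 h replicate 1) peaks, and the median number of fragments at a summit was 11 to 14 per list. The promoters of the pre-B genes Cd79a, Cd79b, Pax5, Ebf1, Vpreb1 and Igll1 carried a peak in all 8 lists, and that of Rag1 in 7. Of 12 genes of other lineages, 8 had no promoter peak in any list, and Col1a1 had one in all 8. Cd4 had one in 4 lists, Klf1 in 3 and Lyz2 in 2, the last at percentiles of 87.9 and 91.6.

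The measure followed was the percentile of a region's highest peak, by fold over local background, among all peaks of its list, so that 100 is the strongest peak. The lists of 2 h were longer than those of 0 h, and a percentile depends on the length of its list. Between 0 h and 2 h the median of all tested regions moved by 3.66 percentile points, and the median of the 56 members by 1.17. The mean percentile was lower at 2 h in 25 tested members and higher in 31 (lower in 38.8% of all tested regions). For testing, normal scores of the percentiles entered a limma fit, in 1 model of 4 time points, with Benjamini-Hochberg adjustment over all 47875 regions and a threshold of 0.01. The 3 comparisons share the 0 h libraries.

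At 30 min limma called 0 of the 56 members lower and 0 higher, as it did of all tested regions (0% in each direction). At an unadjusted p of 0.05, 3 members were lower and 11 higher at 30 min (5.36% and 19.6%), beside 6.35% and 14.0% of all tested regions. At 1 h, 1 member was lower and 1 higher (1.79% each), where 1.02% of all tested regions were lower and 0.986% higher. At 2 h, 2 members were lower (3.57%) and 1 was higher (1.79%), against 2.73% and 2.50% of all tested regions. The members' shares were thus near the background in these comparisons. All 3 called regions belonged to Jak1.

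**Figure D1:**
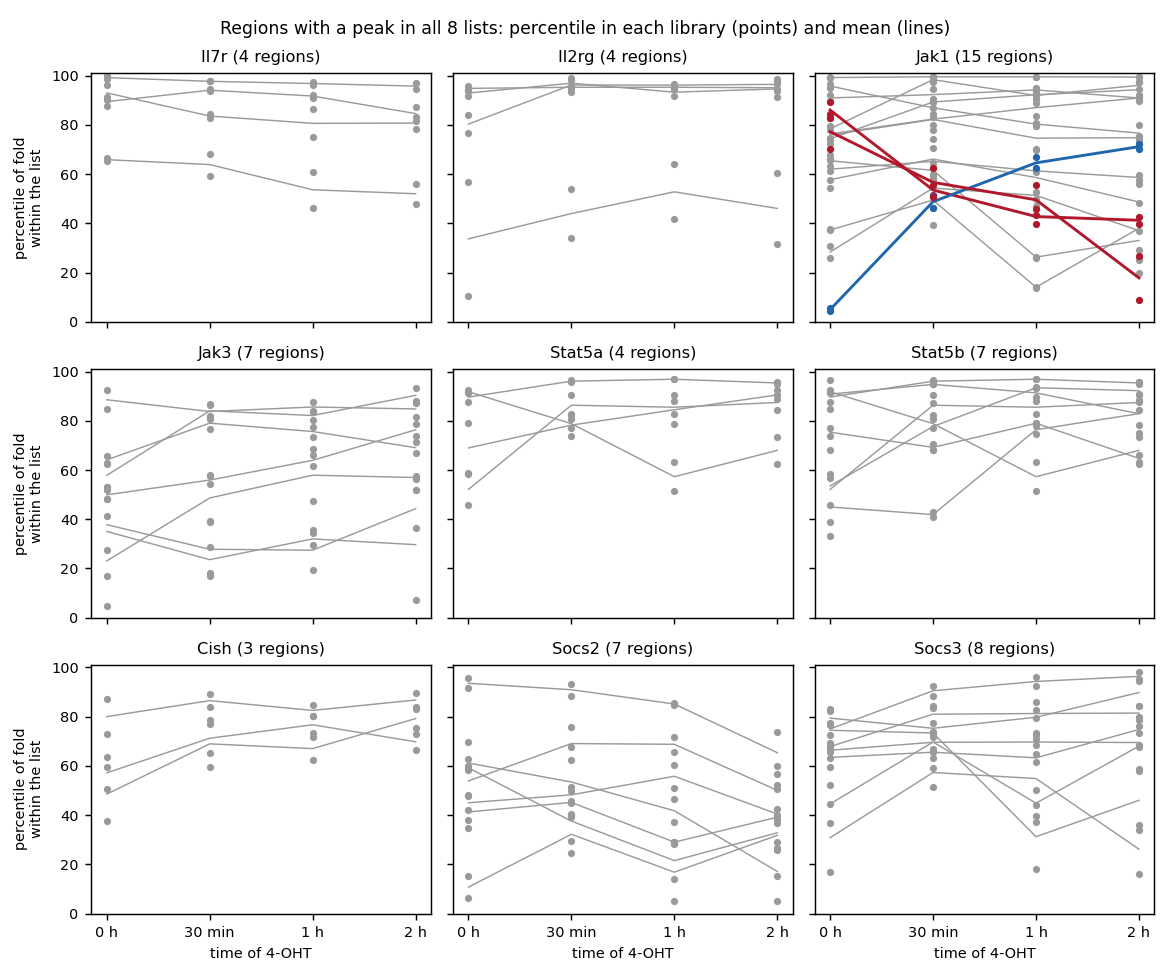
Percentile of fold within the list (vertical axis, 0 to 100) by time of 4-OHT (horizontal axis) for the tested regions of each gene; points are single libraries, lines join the means of 2, red and blue mark regions past the limma threshold that fell and rose, and regions shared by Stat5a and Stat5b appear in both panels. Only the Jak1 panel holds coloured lines: 2 regions fall, from mean percentiles of 86.0 and 77.3 at 0 h, and 1 rises from 4.97 to 71.2.

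In Il7r, which encodes the ligand-binding chain and lies on chromosome 15 (9505788 to 9530176, minus strand), no tested region passed the threshold, though the mean percentile was lower at 2 h in 4 of 4. The promoter region (Il7r +0.3 kb, in an intron just inside the gene) had percentiles of 89.9 and 96.1 at 0 h, 84.2 and 83.0 after 30 min, 74.9 and 86.3 after 1 h and 78.2 and 83.3 after 2 h. The 0 h and 2 h values did not overlap, with 64 fragments in each 0 h library and 42 and 48 at 2 h, and limma gave an adjusted p of 0.0902.

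The strongest Il7r region, an intergenic peak 37.9 kb from the start and beyond the 3′ end of the gene, held percentiles of 99.9 and 98.6 at 0 h and 96.9 and 94.7 at 2 h. Its fragments were 99 and 51 at 0 h and 46 and 42 at 2 h, and the adjusted p was 0.0571. The region with the largest difference, Il7r +1.8 kb in an intron, had 66.5 and 65.3 at 0 h and 56.0 and 48.1 at 2 h (adjusted p 0.265). An intronic peak 276 bp away, Il7r +2.1 kb, was in neither 0 h list and in all 6 later lists, at percentiles of 24.8 to 51.1.

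Il2rg, on the X chromosome (101264378 to 101268255, minus strand), encodes the gamma chain shared by several cytokine receptors. Its promoter region had percentiles of 76.5 and 84.1 at 0 h, 98.9 and 93.5 after 30 min, 95.5 and 96.8 after 1 h and 98.6 and 94.4 after 2 h. Every later library stood above both 0 h libraries. Fragments at the summit were 23 in each 0 h library and 59 and 41 at 2 h, and the normal-score difference at 2 h was 1.03 ± 0.31 (SE; adjusted p 0.0454), which missed the threshold of 0.01.

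Another Il2rg peak lay 677 bp upstream, within an intron of the gene model Gm20489. It stood at percentiles of 64.2 and 68.9 at 0 h, with 18 and 16 fragments, and was in none of the 6 later lists. The other tested regions in the Il2rg window lay next to Foxo4 and Med12, with overlapping groups (93.8 and 95.8 at 0 h against 93.6 and 96.6 at 2 h for the peak near Foxo4), and 8 of the 10 regions had their nearest coding start in another gene.

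Jak1 encodes the kinase bound to the IL-7 receptor alpha chain. It spans 112.9 kb of chromosome 4 (101152367 to 101265282, minus strand) and held 42 regions, of which 15 were tested and 34 were intronic. Its promoter was among the strongest peaks of each list, at percentiles of 99.2 to 99.7 in all 8 libraries, with 88 to 127 fragments. The 2 h difference there was 0.11 ± 0.19 (SE) normal-score units, with an adjusted p of 0.703.

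Jak1 +11.1 kb, in an intron, fell. Its percentiles were 82.8 and 89.3 at 0 h, 55.7 and 51.4 after 30 min, 39.8 and 45.7 after 1 h and 42.6 and 39.9 after 2 h. Both 0 h libraries stood above all 6 others. The fragments fell from 59 and 50 to 24 and 22, and the normal-score difference was -1.28 ± 0.21 (SE) at 1 h (limma adjusted p 0.00915) and -1.32 ± 0.21 at 2 h (adjusted p 0.00518).

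Jak1 +9.6 kb, in the same gene and 1489 bp from the first, rose. By fold over local background it was among the weakest peaks of the 0 h lists, at percentiles of 4.41 and 5.52. It then stood at 46.4 and 51.2 after 30 min, 66.8 and 62.3 after 1 h and 72.1 and 70.2 after 2 h. The values of the 4 time points did not overlap, and both libraries of each time exceeded those of the time before. The difference was 2.03 ± 0.19 (SE) at 1 h (adjusted p 0.00577) and 2.21 ± 0.19 at 2 h (adjusted p 0.00228), and the fragments went from 14 and 10 to 42 and 37. By fragments it was not weak at 0 h, as the medians of those lists were 14 and 11. Its local background was 2.57 fragments per base, against a median of 0.426 over all regions, which lowers the fold of a given number of fragments.

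Jak1 -15.0 kb, an intergenic peak upstream of the promoter, also fell. It had 70.1 and 84.5 at 0 h, 50.8 and 62.6 after 30 min, 55.6 and 43.5 after 1 h and 26.9 and 8.83 after 2 h. The 2 h libraries stood below all others, with 9 and 7 fragments against 28 and 27 at 0 h. The difference reached the threshold at 2 h (-1.75 ± 0.30 SE, adjusted p 0.00652) and not at 1 h (-0.78 ± 0.30, adjusted p 0.108).

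These calls rest on few libraries. At 2 h the call of Jak1 -15.0 kb was lost without any 1 of the 8 libraries, that of Jak1 +11.1 kb without either library of 0 h, 30 min or 2 h, and that of Jak1 +9.6 kb without either 2 h library. The adjusted p without 1 library ran from 0.0113 to 0.0420, from 0.00932 to 0.0340 and from 0.00508 to 0.0151 in that order. At 1 h both calls were lost without any 1 library. With 1 library left out a time point has 1 sample, which is assumed to vary like the rest.

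Other Jak1 regions, named after their values were seen, lay between adjusted p values of 0.01 and 0.05 at 2 h. Jak1 +105.7 kb, near the 3′ end, had 96.8 and 94.8 at 0 h and 73.4 and 80.0 at 2 h (adjusted p 0.0151), and Jak1 +72.8 kb had 67.6 and 63.2 against 37.1 and 29.1 (adjusted p 0.0214). Jak1 +51.6 kb had 82.8 and 74.0 at 0 h and 97.4 and 94.8 at 2 h (adjusted p 0.0303), and Jak1 +20.8 kb had 83.0 and 65.8 against 97.4 and 91.2 (adjusted p 0.0345). An intronic peak, Jak1 +50.9 kb, lay 676 bp from Jak1 +51.6 kb. It stood at 84.8 and 86.0 at 0 h, 14.4 and 18.5 at 30 min, and 6.11 in 1 of the 1 h lists. Neither 2 h list held it. Its fragments were 46 and 36 at 0 h, and the map of Jak1 shows these 2 neighbouring peaks side by side.

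**Figure D2:**
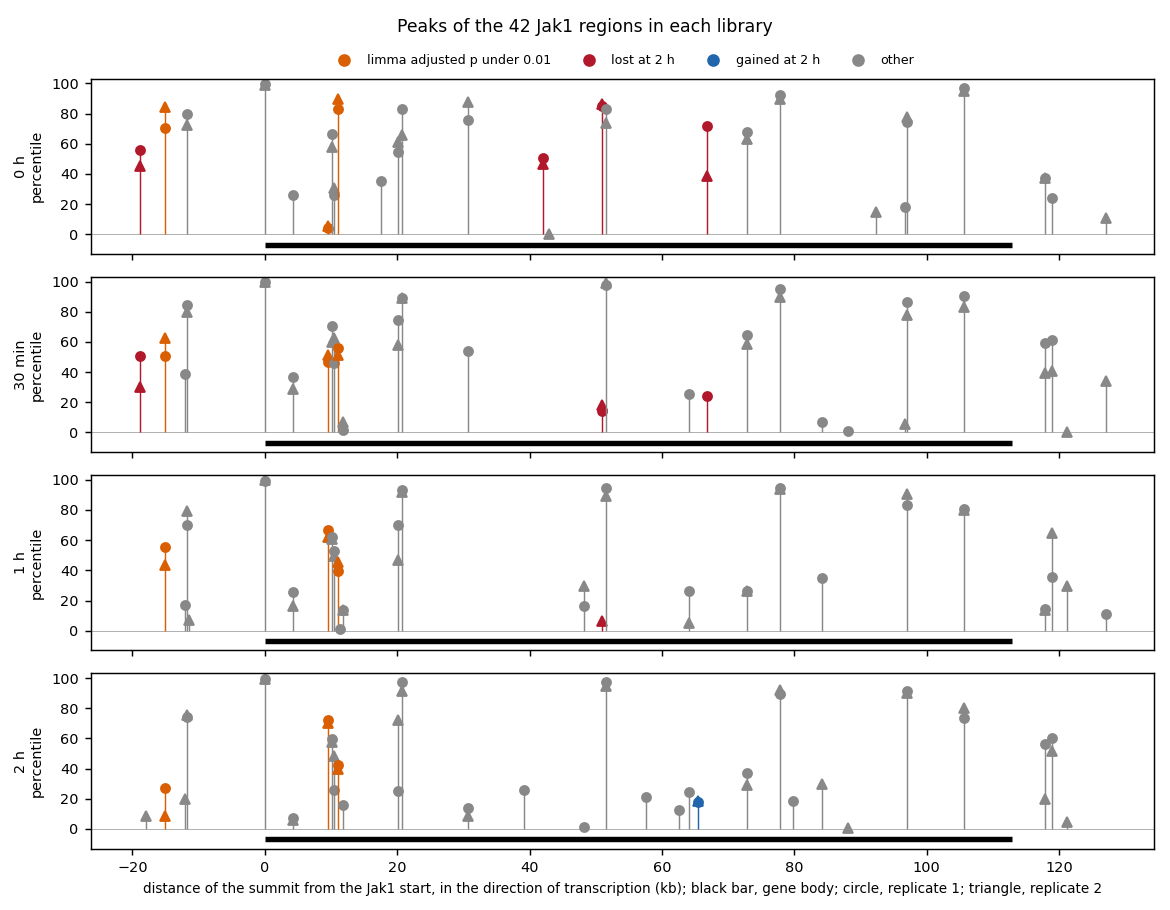
Percentile of each peak of the 42 Jak1 regions (vertical axes, one panel per time) against the distance of its summit from the gene start in kb (horizontal axis); circles are replicate 1, triangles replicate 2, the black bar is the gene body and a missing symbol means no peak. The promoter at 0 stays near 100 in each panel, the regions past the threshold (orange) at 9.6 and 11.1 kb cross between 0 h and 1 h, and the 4 regions lost at 2 h (red) stand at mean percentiles of 48.6 to 85.4 at 0 h.

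Jak3 encodes the kinase bound to the gamma chain and lies on chromosome 8 (71676296 to 71690575, plus strand). It had no strong promoter peak. The strongest of 3 regions within 1 kb of a Jak3 start site, Jak3 +1.5 kb, was in 6 of the 8 lists, at 50.8 and 4.70 at 0 h and at 35.8 in 1 of the 2 h lists, with 4 to 16 fragments. None of its 7 tested regions passed the threshold. The largest rise in value was at Jak3 -10.7 kb, in an intron of Unc13a (41.3 and 4.86 at 0 h against 56.4 and 57.5 at 2 h, adjusted p 0.0905), and the largest fall in value at Jak3 +31.8 kb (53.1 and 17.0 against 52.0 and 7.32, adjusted p 0.720), where the groups overlapped. The lowest adjusted p values, at regions named after their values were seen, were at Jak3 +33.6 kb, in an exon of the neighbouring gene Fcho1 (53.0 and 62.7 at 0 h, 93.5 and 87.2 at 2 h, adjusted p 0.0111), and Jak3 -4.5 kb (48.1 and 51.7 against 73.8 and 78.8, adjusted p 0.0323). Just 4 of the 18 regions had a member gene's start as their nearest coding start site, the others lying nearer to genes such as Unc13a, B3gnt3 and Fcho1.

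Stat5a and Stat5b, which encode closely related transcription factors activated by the JAKs, lie head to head on chromosome 11 (100859351 to 100885169, plus strand, and 100780731 to 100850724, minus strand). The Stat5a promoter region, at an inner start site 1.1 kb into the gene, had percentiles of 91.7 and 87.6 at 0 h, 95.6 and 96.6 after 30 min, 96.9 and 96.8 after 1 h and 95.9 and 94.8 after 2 h (adjusted p 0.163 at 2 h). Its 0 h values were the lowest. At Stat5b the strongest promoter region, Stat5b -0.7 kb, had percentiles of 18.5 and 17.0 at 0 h, 64.6 in 1 of the 30 min lists and no peak in the other, 25.7 and 38.8 at 1 h, and 28.0 and 28.8 at 2 h. A peak at the Stat5b start, 44 bp inside the gene, was in neither 0 h list and in both 2 h lists, at 5.24 and 15.0.

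Of the 8 tested Stat5 regions, 0 passed limma's threshold in any comparison, and 4 had an adjusted p between 0.01 and 0.05 at 2 h. The share of all tested regions in that range is not given here, so this count does not set the Stat5 genes apart. Inside Stat5b, Stat5b +7.3 kb had 92.5 and 91.1 at 0 h, 77.1 and 80.6 after 30 min, 51.5 and 63.1 after 1 h and 73.5 and 62.5 after 2 h, all later libraries being below both 0 h libraries (adjusted p 0.0123 at 1 h and 0.0201 at 2 h). A neighbour 2398 bp away, Stat5b +9.7 kb, had 58.3 and 45.9 at 0 h, 90.5 and 82.2 after 30 min, 88.1 and 83.0 after 1 h and 84.4 and 90.4 after 2 h, all later libraries being above both 0 h libraries (adjusted p 0.0149). Stat5b +31.5 kb, another intronic peak, stood at 68.1 and 39.0 at 0 h and at 88.6 and 95.8 at 2 h (adjusted p 0.0211), and Stat5b +46.0 kb at 56.9 and 33.1 against 87.4 and 78.4 (adjusted p 0.0188).

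Among the feedback genes, Cish, which encodes a STAT5-induced inhibitor of cytokine receptors, lies on chromosome 9 (107296026 to 107302784, plus strand). Its promoter peak, in a non-coding part of the exon around Cish +0.5 kb, had percentiles of 87.0 and 73.1 at 0 h and 83.7 and 89.8 after 2 h, and the groups overlapped (adjusted p 0.475). The 200 bp around its summit held the STAT5 word TTCNNNGAA. The other tested Cish regions lay upstream, at 37.5 and 59.5 against 83.2 and 75.2 for Cish -4.9 kb, whose adjusted p at 2 h was 0.0567. A distal peak, Cish +22.5 kb, stood at 84.1 in both 0 h lists, at 71.2 and 62.3 at 30 min and at 11.0 in 1 of the 1 h lists, and was in neither 2 h list.

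Socs2, on chromosome 10 (95385362 to 95417180, minus strand), encodes an inhibitor known from growth hormone signalling. Of 8 regions within 1 kb of one of its start sites, the strongest where listed, Socs2 +0.4 kb, in a non-coding part of an exon, had percentiles of 49.1 and 59.4 at 0 h and 28.4 and 46.9 at 30 min and was in none of the 4 lists of 1 h and 2 h. The fragments were 32 and 26 at 0 h and 19 and 21 at 30 min. Strength was averaged over the lists that held a region, so lists without it did not count in this choice. Of the 7 tested Socs2 regions, 6 had a lower mean at 2 h. The other, Socs2 +24.9 kb, within 1 kb of another of its start sites, had 15.3 and 6.15 at 0 h against 26.7 and 36.8 at 2 h (adjusted p 0.136). Socs2 +27.8 kb, an intronic peak, had 91.4 and 95.6 at 0 h, 84.7 and 85.5 after 1 h and 73.8 and 56.9 after 2 h, with 90 and 87 fragments at 0 h against 27 and 18 at 2 h (adjusted p 0.0147). Socs2 +1.5 kb, in a non-coding part of an exon, had 59.3 and 63.0 against 5.12 and 29.1 (adjusted p 0.0303). The local background at Socs2 was high (a median of 1.97 fragments per base over its 24 regions, against 0.426 over all regions), and a peak there needs more fragments to be listed. The same limit holds for some regions of other genes. The background was 2.59 at Jak1 +11.1 kb, 2.57 at Jak1 +9.6 kb, 2.85 at the Jak1 promoter and 2.31 at the Il7r promoter region. At Jak1 -15.0 kb it was 0.861.

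**Figure D3:**
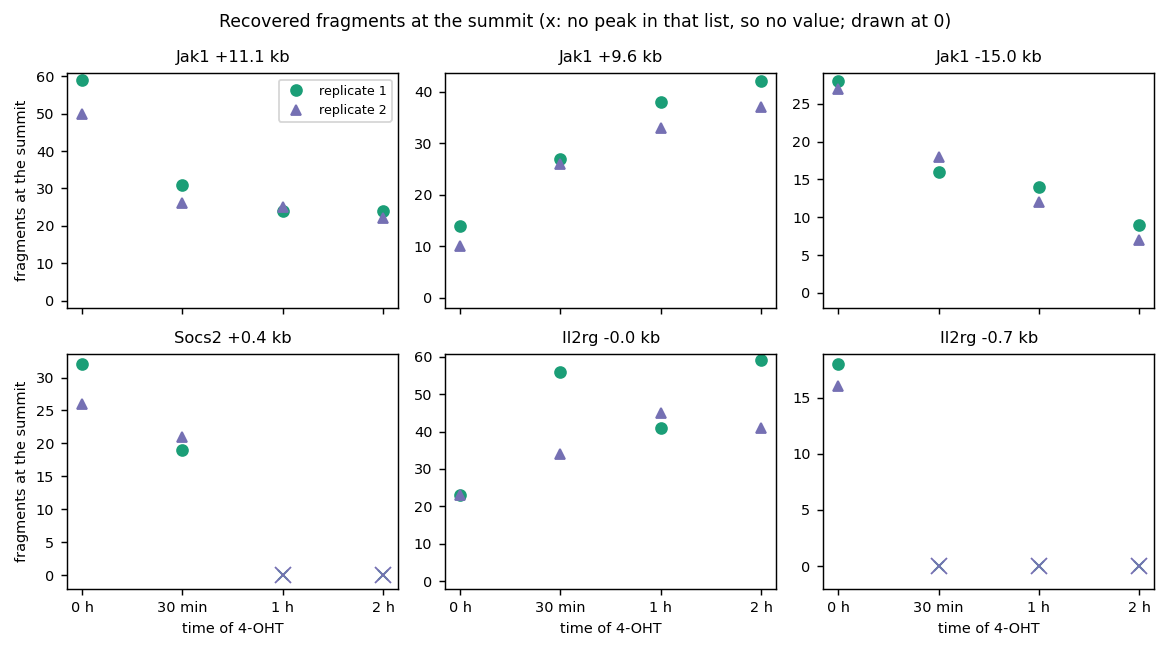
Fragments at the summit (vertical axes, from 0) recovered from the deposited fold and p-value of 6 regions, by time of 4-OHT (horizontal axes), with circles for replicate 1 and triangles for replicate 2; a cross drawn at 0 means that the list has no peak there and gives no value. The fragments of Jak1 +11.1 kb are 50 and 59 at 0 h and 22 to 31 afterwards, those of Jak1 +9.6 kb go from 10 and 14 at 0 h to 37 and 42 at 2 h, and the peaks at Socs2 +0.4 kb and Il2rg -0.7 kb are not listed after 30 min and after 0 h, respectively.

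Socs3, on chromosome 11 (117966079 to 117970047, minus strand), encodes an inhibitor of JAK kinases. Its promoter peak had 67.3 and 59.5 at 0 h and 76.1 and 73.5 at 2 h (adjusted p 0.298). Of its 8 tested regions 0 passed limma's threshold, and the closest was Socs3 +17.7 kb beyond the gene, at 77.6 and 72.4 at 0 h, 92.6 and 88.4 after 30 min, 96.2 and 92.4 after 1 h and 94.5 and 98.2 after 2 h (adjusted p 0.0133). A peak upstream of the gene, Socs3 -4.9 kb, stood at 83.1 and 71.5 at 0 h, 25.0 and 28.5 at 30 min, and 8.45 and 5.07 at 1 h, and was in neither 2 h list. Socs3 +4.2 kb, just past the 3′ end, had 65.8 and 83.1 at 0 h, 44.3 and 18.2 at 1 h, and 34.1 and 58.0 at 2 h (adjusted p 0.0409 at 1 h and 0.113 at 2 h). The largest rise in value, at Socs3 +22.7 kb, was from 37.0 and 52.1 at 0 h to 68.3 and 67.7 at 2 h (adjusted p 0.0825). Socs3 +17.7 kb was named after its values were seen.

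Across the 9 genes, 6 promoter regions were in all 8 lists and were tested, and 0 of them passed limma's threshold. The mean percentile at 2 h was higher than at 0 h for 5 of the 6 (Il2rg, Jak1, Stat5a, Cish and Socs3) and lower for Il7r. The Jak1 difference was 0.21 percentile points, and the Cish groups overlapped. Of all tested regions 38.8% had a lower mean at 2 h, and their median moved up by 3.66 points. The promoter directions are thus not set apart from those of all regions. The changes of all tested members are shown against the quartiles of all tested regions, -5.92 and 15.8 percentile points. The 0 h and 2 h values of 37 of the 56 members did not overlap, against 64.9% of all tested regions.

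**Figure D4:**
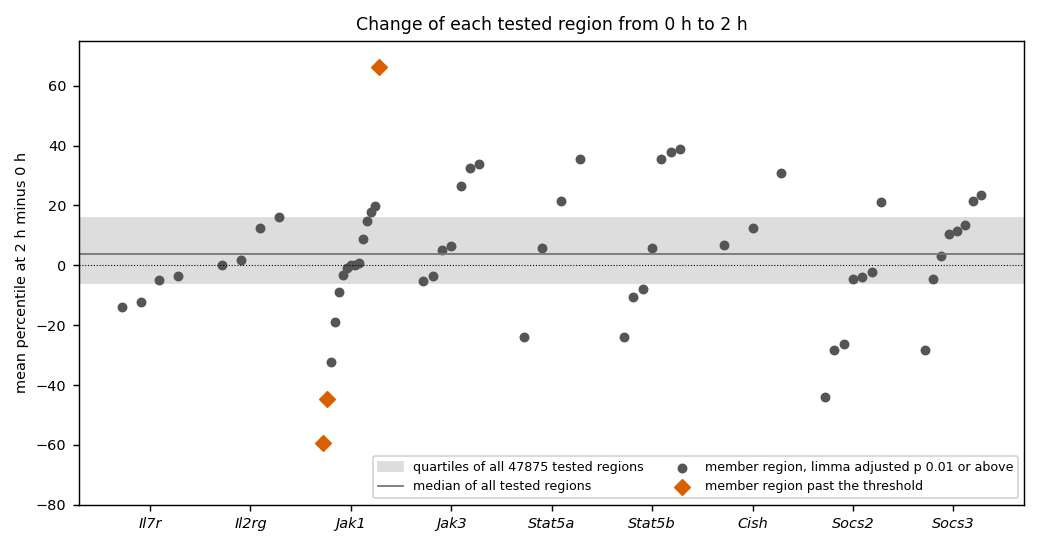
Mean percentile at 2 h minus that at 0 h (vertical axis, percentile points) for each tested region, by gene (horizontal axis); the grey band and line are the quartiles and median of all 47875 tested regions, and orange diamonds are members past the limma threshold. The 4 Il7r regions lie below 0, and the regions past the threshold are Jak1 regions at -59.4, -44.8 and 66.2.

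Presence in the lists could be followed for members that were not in all 8. Lost regions had a peak in each 0 h list and in no list of the later time, and gained regions the reverse. At 2 h, 17 of the 89 members in both 0 h lists were lost (19.1%, against 16.6% of all such regions), and 13 of the 78 in both 2 h lists were gained (16.7%, against 20.5%). At 1 h the counts were 17 of 89 lost (19.1%, against 14.6%) and 11 of 78 gained (14.1%, against 17.0%), and at 30 min 14 of 89 lost (15.7%, against 10.9%) and 5 of 81 gained (6.17%, against 10.3%). With 2 libraries per time these are counts with no test. Without 0 h replicate 2 the members lost numbered 27 at 1 h and at 2 h, and without 1 of the 2 h libraries the members gained numbered 25 or 32, since a single list then decides presence.

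The regions lost at 2 h were 4 of Jak1 (+66.8, +50.9, +42.0 and -18.9 kb), 3 of Socs2 (+29.2, +0.4 and -0.1 kb), 2 of Cish (+8.1 and +22.5 kb), 2 of Socs3 (+15.8 and -4.9 kb), 1 of Il7r (+35.2 kb), 1 of Il2rg (-0.7 kb) and 4 around Stat5b and Stat5a. Among the last, Stat5a +2.2 kb lay in an intron of Stat5a (48.4 and 57.2 at 0 h, no later list), and the peak between the genes, Stat5a -6.2 kb, had 59.6 and 64.3 at 0 h and 24.6 and 56.8 at 30 min. Stat5b +23.9 kb and Stat5b +74.3 kb were the others. Of the 17, 9 were absent at 30 min already and 7 from all later lists. Their mean percentile at 0 h ran from 13.2 to 85.4, with a median of 52.8, where that of all lost regions was 37.2.

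The 13 gained at 2 h had a mean percentile at 2 h of 7.22 to 48.1 (median 28.8, against 34.8 of all gained regions). Their median was below that of the lost members at 0 h, and they had 6 to 18 fragments at 2 h. They were 3 of Il7r (+43.0, +2.1 and -5.1 kb), 1 each of Jak1 (+65.4 kb), Jak3 (-10.3 kb) and Socs2 (+41.8 kb), 2 of Socs3 (-2.0 and -18.1 kb) and 5 of the Stat5 genes (Stat5a +14.4 kb, Stat5b +61.8, +28.2 and +0.0 kb, and 1 farther from the Stat5b start site at 6.66 and 7.78 at 2 h). Just 2 of the 13 were in all 6 lists after 0 h, Il7r +2.1 kb at percentiles of 24.8 to 51.1 with 16 to 25 fragments and Stat5a +14.4 kb, an intronic peak, at 23.6 to 62.7 with 6 to 12.

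**Figure D5:**
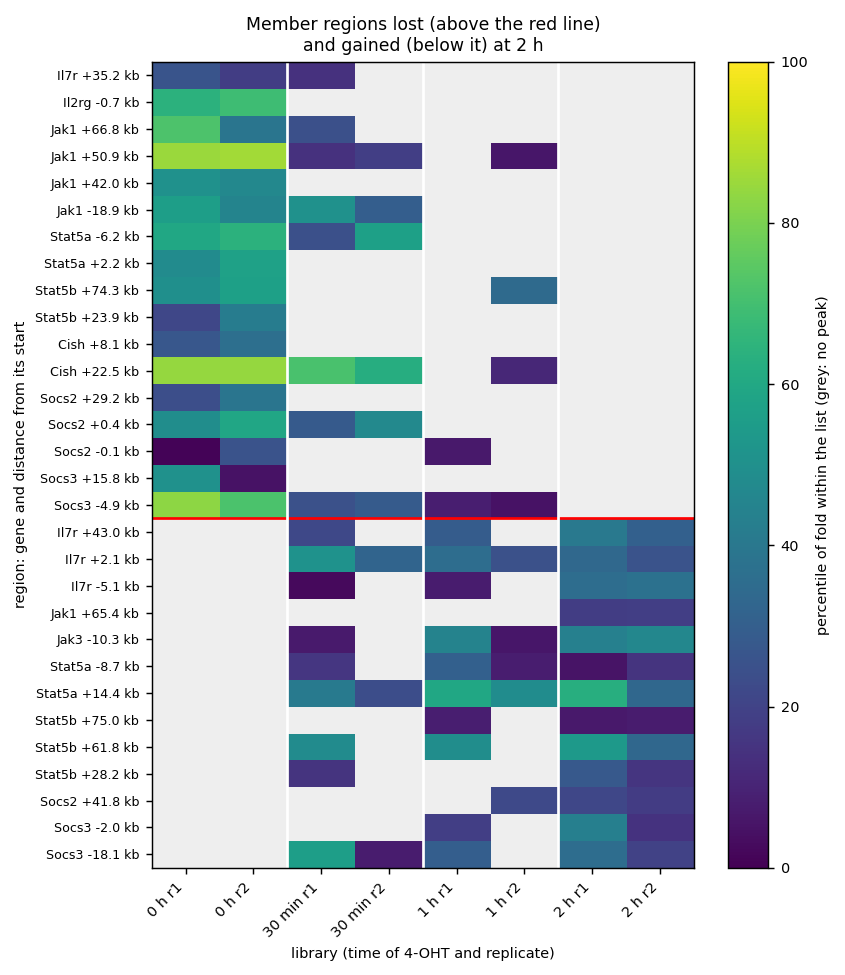
Percentile of fold within the list (colour, grey where the list has no peak) of the 17 member regions lost and the 13 gained at 2 h (rows, named by gene and distance from its start) in the 8 libraries (columns, by time and replicate). Peaks of Jak1 +50.9 kb, Cish +22.5 kb and Socs3 -4.9 kb reach percentiles above 70 at 0 h and are weaker or absent later, while the gained rows stay at 62.7 or below.

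The count of core words in the 200 bp around the summit was not used to choose the members. It averaged 6.29 ± 2.23 (SD) in the 17 members lost at 2 h, 3.69 ± 2.39 in the 13 gained and 4.49 ± 2.37 in all 174. In the whole series the means were 6.16 in lost regions, 2.93 in gained regions and 4.13 in all regions, and no test was made. The GC content of the members lost and gained was 53.3% and 52.8%. The STAT5 word TTCNNNGAA was in 9 of the 174 members (5.17%), against 4.92% of all regions.

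Of 18 further genes of the pathway, 319 regions that were no members lay in or within 20 kb of a gene, and 118 were tested. At 2 h, 5 were lower (4.24%, against 2.73% of all tested regions) and 2 higher (1.69%, against 2.50%). Of 155 in both 0 h lists, 22 were lost (14.2%, against 16.6% of all), and of 165 in both 2 h lists, 26 were gained (15.8%, against 20.5%). Both Ptpn6 calls, in introns of this phosphatase gene at 8.7 and 8.4 kb, were lower (80.7 and 77.9 at 0 h against 16.5 and 13.9 at 2 h for the former, adjusted p 0.00237). Jak2 -14.5 kb rose from 21.2 and 10.6 to 75.7 and 72.5 (adjusted p 0.00349), and a peak 56.2 kb from the start of Bcl2l1, a survival gene, rose from 72.7 and 83.5 to 98.9 and 98.4 (adjusted p 0.00664). The others that fell were Stat3 -12.9 kb, an intron of Bcl2, and an intron of Ccnd3, the cyclin D3 gene (87.2 and 86.8 against 24.3 and 9.16, adjusted p 0.00259). The regions of Il7 and Crlf2 gave 0 calls by limma.

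The balance of calls differed between scales, and the cause was not tested. Over all tested regions, 52.1% of the calls at 2 h were lower, against 67.4% when regions were ranked among the 47875 alone, 63.4% when fragments over background were centred in each library, 61.8% with lists of equal length and 47.6% on fragments over background without centring. At 1 h the shares were 50.9%, 69.6%, 65.6%, 56.1% and 54.8% in that order. On the common rank, 5 of the 56 members were lower and 1 higher at 2 h, where 4.71% and 2.28% of all tested regions were. On the centred fragments 7 were lower and 7 higher, where 9.34% and 5.40% of all were.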

How the data were processed

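The authors aligned reads with BWA 0.7.17 through nf-core/atacseq, shifted ends for the Tn5 offset, kept nucleosome-free fragments and called peaks with MACS2 2.1.2 on each library. The methods text names a human build and the labels GRCm38; peaks of all 21 chromosomes fell inside GRCm38. The deposited lists give, per peak, the ratio of fragments at the summit to local background (fold), and −log10 of its p-value and q-value; counts per region were not used here. From fold and p-value the whole number of fragments at the summit was recovered (tolerance 0.0005 in −log10 p). Overlapping peaks were merged into regions, ranked within each list (100 × (rank − 0.5) / peaks, highest peak per region), and regions in all 8 lists were fitted as normal scores in limma 3.58.1 (R 4.3.3; lmFit, eBayes). The fit and the recovery were tested on simulated data. Regions named are, per gene, its promoter region (within 1 kb of a start site; the strongest if several), those past adjusted p 0.01, the largest fall and rise from 0 h to 2 h, and those lost or gained at 2 h. Genes, lists and rules were chosen with earlier results of these data known. Alternatives covered the rank, the scale, the filters, the fit, the window (5 and 50 kb) and each library left out. The authors' exclusion list was not used here. One gene of the marker list is not reported here.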

Additional observations from a re-analysis of the deposited data

How the results depend on the processing

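All 3 Jak1 regions kept their direction in every alternative in which they could be fitted, but these reuse the same libraries. Jak1 +9.6 kb and Jak1 -15.0 kb could not be fitted with the −log10 q filter or equal lists. With the replicate block, limma's adjusted p was 0.0101 for Jak1 -15.0 kb at 2 h and 0.0133 for Jak1 +11.1 kb at 1 h. With regions in at least 2 lists it was 0.0107 for Jak1 +11.1 kb and 0.0179 for Jak1 +9.6 kb at 1 h. These missed the threshold. Member counts moved more. A count given here without the share of all tested regions does not set the members apart from the background. With adjusted p under 0.05, 2 members were higher at 30 min, 5 were lower and 4 higher at 1 h, and 7 were lower and 10 higher at 2 h. A mean trend with a robust prior gave 1 higher at 30 min, 3 lower and 3 higher at 1 h, and 5 lower and 7 higher at 2 h. For neither setting is the share of all tested regions given here. With the log2 of recovered fragments over background, 5 fell and 4 rose at 1 h, and 5 and 8 at 2 h. Of all tested regions, 5.15% fell and 4.24% rose at 1 h on that scale, and 7.14% and 7.85% at 2 h. Centring these fragments in each library gave 6 and 2 members at 1 h and 7 and 7 at 2 h. Of all tested regions, 6.59% fell and 3.46% rose at 1 h after centring, and 9.34% and 5.40% at 2 h. Ranking among common regions gave 3 lower at 1 h and 5 at 2 h, and ranking by −log10 p-value 2 higher at 2 h. On the common rank 2.51% of all tested regions were lower at 1 h and 4.71% at 2 h. With regions in at least 2 lists, 1 was lower at 30 min, 12 lower and 0 higher at 1 h, and 17 lower at 2 h. In that fit an absent peak takes a rank below the weakest of its list, and 13 of the 17 were in no 2 h list, so that their direction follows from the filter and the placed rank and tests nothing more than absence. With peaks under a −log10 q of 5 left out, 2 were lower and 0 higher at 1 h, 1 was lower at 2 h, and 7 and 8 were gained at 1 h and 2 h. With lists of equal length 2 were lower, 0 higher and 4 gained at 1 h, and 4 lower and 0 higher at 2 h. Of all regions tested on such lists, 0.967% were lower and 0.758% higher at 1 h, and 3.42% and 2.11% at 2 h. A 5 kb window left 1 lower at 2 h, 11 lost at 1 h, and 3 and 8 gained at 30 min and 2 h. A 50 kb window held 2 lower, 2 higher and 21 gained at 1 h, and 3 higher and 20 gained at 2 h. The causes were not tested, beyond the fewer or more regions that windows and filters leave by construction.

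With replicate number as a block, 0 members were lower at 1 h and 1 at 2 h, 1 being higher at each. The numbers are not known to pair libraries. The deviations of libraries with the same number from their group means correlated at 0.0202 to 0.0371 between time points, below the 0.1 set for pairing.

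Without 1 library, limma called 0 members lower and 0 higher at 30 min and at 1 h, and 0 to 1 lower and 0 to 1 higher at 2 h. Members lost then numbered 14 to 21 at 30 min, 21 to 27 at 1 h and 21 to 27 at 2 h, and members gained 5 to 19, 11 to 33 and 13 to 32. A median of 11 to 14 fragments at a summit limits the precision of a single value, and a region without a peak may hold fragments below the calling limit.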
